A study of Mus musculus with 14 samples.

Results

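Integrins are receptors made of an alpha and a beta subunit that tie the extracellular matrix to the actin cytoskeleton. The subunits described here are 10 genes, Itga2, Itga3, Itga5, Itga6, Itgav, Itgb1, Itgb4, Itgb5, Itgb6 and Itgb8, taken as every probe set whose platform annotation names only that gene. This gave 29 probe sets of the 45037 that are not controls, and 10 genes of 18193. Itgb1 had 6 probe sets, Itgav 5, Itga5 and Itgb5 4 each, Itga3 3, Itga6 and Itgb6 2 each, and Itga2, Itgb4 and Itgb8 1 each.

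The cells were SCp2, an established line of mouse mammary epithelial cells, grown in DMEM with 2% FCS. They were plated in 35 mm dishes and kept for 3 days with MMP3, a secreted protease that cuts matrix and cell surface proteins, or as controls, and RNA of each dish was hybridised to an Affymetrix mouse array of its own. Experiment A held MMP3 and control dishes at the plated densities labelled 50K, 100K and 250K, 6 arrays, and experiment B held both agents at 25K, 50K, 100K and 250K, 8 arrays. Each agent and density was thus on 1 array per experiment, the line is the same in all groups, and the labels do not say how dishes of one experiment were related, so p-values cover the variation among these dishes, which may be technical.

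In mammary epithelium, alpha3beta1 and alpha6beta4 bind laminin of the basement membrane, and alpha6beta4 anchors hemidesmosomes. The beta1 chain pairs with most alpha chains, among them alpha2, a collagen receptor, and alpha5, the classical fibronectin receptor. The alphav chain pairs with beta5, a vitronectin receptor, with the epithelial chain beta6, and with beta8. Both alphavbeta6 and alphavbeta8 bind and activate latent TGF-beta.

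The deposited values were on a relative log2 scale in which 0 is the median of that probe set over the 14 arrays. They compare arrays and hold no level. Whether a flat probe set was expressed, or one gene more than another, could not be read from them, and the labelled cell type could not be checked by level. Of the 10 genes, 9 had a lead probe set (the one with the largest SD over the 14 arrays) past a filter at the 40th percentile of that SD, as did 25 of the 29 probe sets. The flattest were 1438119_at of Itgb1 and 1423268_at of Itga5, with SDs of 0.012 and 0.013.

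In experiment B, 4 of the 8 arrays went against their agent labels over the rest of the genome. Correlations with the MMP3 effect seen in A were taken over 26997 varying probe sets other than the members. Of the MMP3 arrays of B, 25K and 100K ran against that effect, with r = -0.662 and -0.366. Of its control arrays, 50K and 250K followed it, with r = 0.692 and 0.725. The other arrays of B went with their labels, control 25K and 100K at -0.569 and -0.749, MMP3 50K and 250K at 0.675 and 0.378. By density, all 25K and 100K arrays were thus negative and all 50K and 250K arrays positive. The array MMP3 100K of B also stood apart in spread, with an SD over all probe sets of 0.869, compared with 0.232 to 0.412 on the other 13, and in its actin control, whose 3′ end less its 5′ end was 0.65, compared with -0.34 to 0.19. Results are therefore given by experiment, and arrays are called by their deposited labels.

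The promoters of 3 of the genes are shown because Itgav, Itgb5 and Itgb6, whose products pair as alphavbeta5 and alphavbeta6, shared a pattern over the arrays that is described below. It was seen on some probe sets of Itgav and Itgb6 and not on others. By their correlation with the MMP3 effect of A, the arrays of B split at the same densities over the rest of the genome. Each is the 250 bases before a RefSeq start in GRCm38.p6, 5′ to 3′ on the gene's strand, with each CG in capitals. They lie at chr2:83724147-83724396 (plus strand, Itgav), chr16:33829415-33829664 (plus strand, Itgb5) and chr2:60722604-60722853 (minus strand, Itgb6). The Itgav start used is the one in the sequence table and lies 2094 bases inside the gene as RefSeq annotates it, so that window is within the annotated gene.
Itgav: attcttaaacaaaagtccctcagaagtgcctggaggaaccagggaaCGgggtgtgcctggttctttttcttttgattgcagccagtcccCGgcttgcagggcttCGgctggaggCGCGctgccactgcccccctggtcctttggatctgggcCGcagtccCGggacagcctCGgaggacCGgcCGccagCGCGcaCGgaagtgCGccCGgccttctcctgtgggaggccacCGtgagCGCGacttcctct
Itgb5: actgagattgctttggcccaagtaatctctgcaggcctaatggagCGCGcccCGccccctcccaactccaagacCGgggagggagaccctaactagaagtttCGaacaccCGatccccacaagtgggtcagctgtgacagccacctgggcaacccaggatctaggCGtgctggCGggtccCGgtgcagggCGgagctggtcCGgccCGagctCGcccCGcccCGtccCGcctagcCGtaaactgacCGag
Itgb6: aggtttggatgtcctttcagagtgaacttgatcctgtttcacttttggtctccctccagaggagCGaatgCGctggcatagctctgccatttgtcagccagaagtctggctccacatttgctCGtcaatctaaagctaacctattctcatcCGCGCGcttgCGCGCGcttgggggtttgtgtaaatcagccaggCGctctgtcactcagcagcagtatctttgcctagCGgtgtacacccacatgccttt
Itgav and Itgb5 had 18 CG each in this window and Itgb6 11, against a median of 6 over 32851 such windows. G and C made up 64.4% of the Itgav window, 65.2% of Itgb5 and 52.0% of Itgb6, with a median of 52.4% over all windows. On both strands, none of the 3 held TGANTCA (the AP-1 motif, in 6.75% of all windows), CATTCC (TEAD, 12.6%) or the core of the interferon response element (GAAA, any 2 bases, GAAA; 2.98%). Among the 8 integrin genes with a window, 1 had CATTCC (Itgb1) and 1 had the interferon core (Itga3).

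The first comparison asked how MMP3 changed the subunits in experiment A. Among the members Itgav rose by 0.96 on the log2 scale (1.95-fold) and Itga3 by 0.35 on 1 probe set each. Another probe set of Itgav fell by 0.13. The beta chains Itgb6, Itgb5 and Itgb1 had larger or similar estimates, between 0.56 and 1.58, that did not pass over all probe sets. Over all probe sets 2 of 29 passed as higher and 1 as lower with limma (adjusted p under 0.05), where 2.41% and 1.71% of all 45037 passed, 4.11% together. By lead probe set 1 of 10 genes passed, Itga3, higher, against 5.05% of 18193 genes in either direction, 3.13% higher and 1.91% lower. At an unadjusted p under 0.05, 5 of 10 genes and 13 of 29 probe sets passed, against 26.6% of genes and 23% of probe sets. The median change of the 10 genes was 0.26, and -0.02 over all genes. As these are bulk samples, fewer cells of a type and less RNA per cell cannot be told apart.

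**Figure D1:**
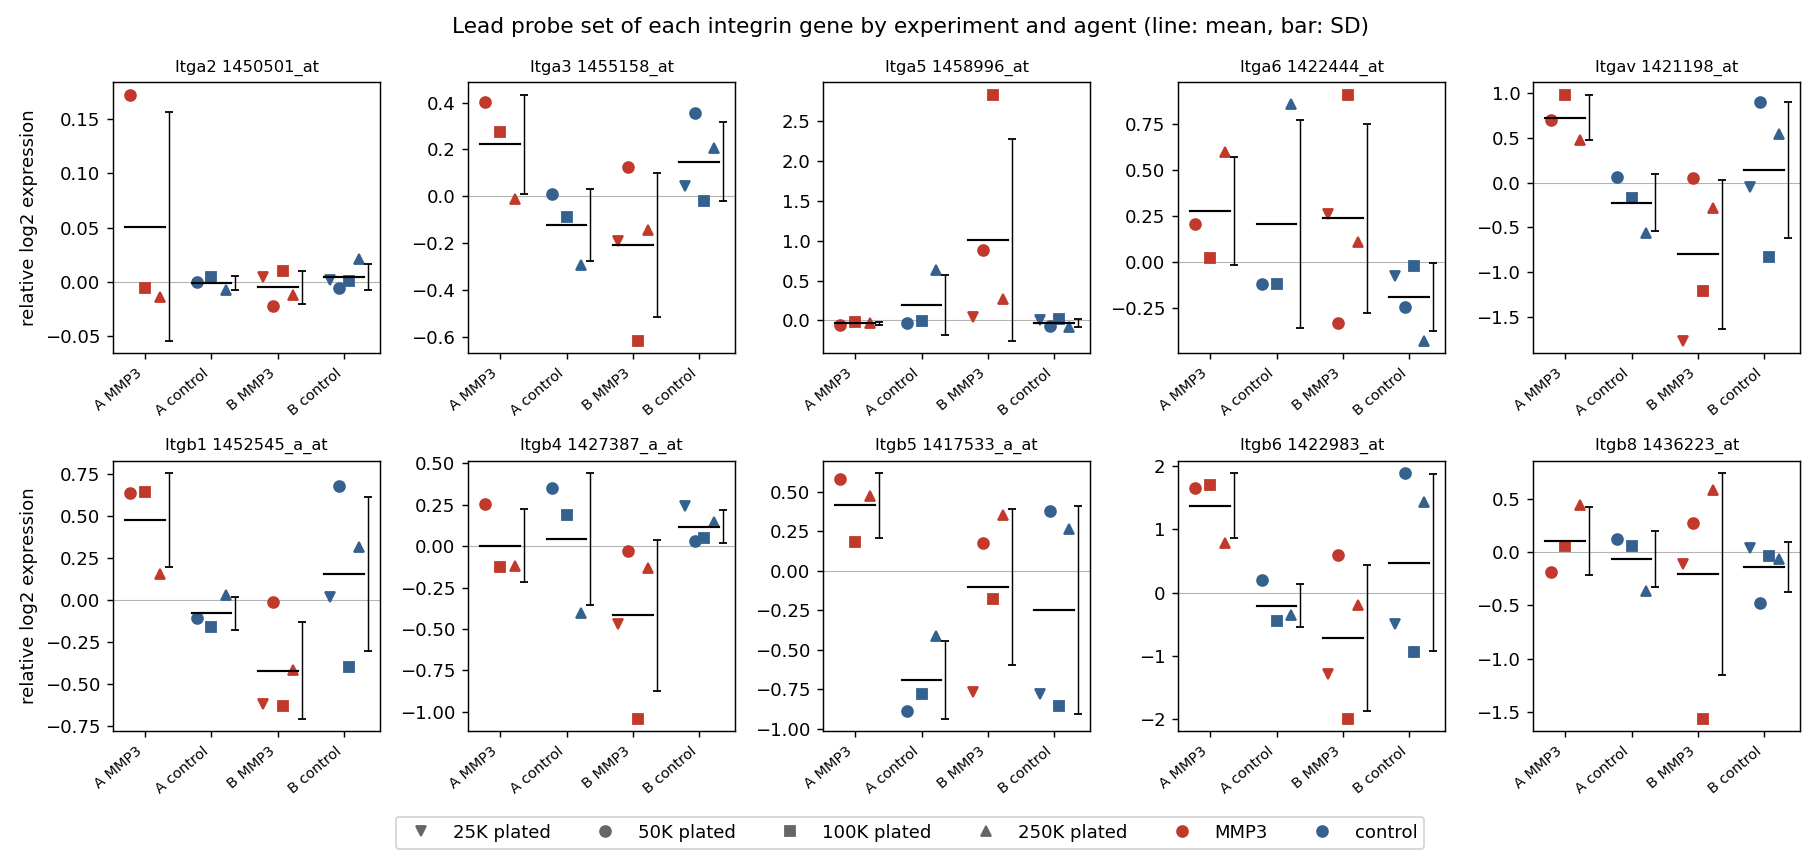
Relative log2 expression of the lead probe set of each of the 10 integrin genes (y axis) by experiment and agent (x axis), 1 point per array, shaped by plated density, with the mean (line) and SD (bar). In experiment A all 3 MMP3 points of Itgav, Itgb1, Itgb5 and Itgb6 lie above all 3 control points, and in experiment B the agents overlap for these genes.

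For Itgav, the shared chain of the vitronectin and TGF-beta binding receptors, probe set 1452784_at read 0.65, 0.57 and 0.55 with MMP3 at 50K, 100K and 250K in A, against -0.32, -0.42 and -0.38 in controls. The agents did not overlap, and the spread within each was small, with means of 0.59 ± 0.05 with MMP3 and -0.37 ± 0.05 in controls (SD, n = 3 each). The rise was 0.96 (SE 0.03, adjusted p = 0.0245, limma), with MMP3 higher in 3 of 3 pairs.

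The lead probe set of Itgav, 1421198_at, read 0.70, 0.98 and 0.48 with MMP3 and 0.06, -0.17 and -0.56 in controls. These groups too were apart, with the 250K array the lowest in each, and the difference of 0.94 (SE 0.15, adjusted p = 0.100, limma) did not pass. Among the other 3 probe sets of Itgav, 1432679_at had MMP3 arrays between -0.01 and -0.0044 and controls at 0.02, 0.10 and 0.24. Its difference of -0.13 (SE 0.01, adjusted p = 0.0397, limma) did not pass with the SD filter (adjusted p = 0.129, limma), and 1432678_at and 1432296_a_at differed by -0.21 and 0.18 (adjusted p = 0.545 and 0.248, limma).

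Itgb5, the vitronectin-binding partner of alphav, read 0.58, 0.18 and 0.47 with MMP3 on its lead probe set 1417533_a_at, against -0.89, -0.78 and -0.42 in controls. All MMP3 arrays were above all controls, by 1.11 on average (SE 0.15, 2.15-fold, adjusted p = 0.0792, limma). Its other 3 probe sets differed by 0.83 to 0.96 (adjusted p = 0.0838 to 0.0962, limma), each without overlap and higher in 3 of 3 pairs. All 4 probe sets of Itgb5 thus had the agents apart. Those ending in _x_at or _s_at hold probes that can also match other transcripts, in Itgb5, Itgb1, Itga3 and Itga5.

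Itgb6, the epithelial partner of alphav in TGF-beta activation, had the largest difference of the 10 genes. Its lead probe set 1422983_at read 1.65, 1.69 and 0.78 with MMP3, against 0.19, -0.44 and -0.36 in controls. The agents did not overlap, and the difference was 1.58 (SE 0.23, 2.98-fold, adjusted p = 0.0903, limma). The second probe set, 1432281_a_at, read 1.07, 0.58 and -0.09 with MMP3 and between -0.27 and 0.0026 in controls, so that MMP3 was above controls at 50K and 100K only, with a difference of 0.61 (SE 0.11, adjusted p = 0.115, limma).

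Itgb8, the other chain that binds latent TGF-beta with alphav, read -0.19, 0.05 and 0.44 with MMP3, against 0.12, 0.06 and -0.36 in controls. The groups overlapped, MMP3 being lower at 50K and higher at 250K, and the difference was 0.16 (SE 0.06, adjusted p = 0.241, limma), or 0.052 without control 250K and 0.079 without control 50K.

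Itgb1, the most widely paired beta chain, read 0.63, 0.64 and 0.15 with MMP3 on its lead probe set 1452545_a_at, against -0.11, -0.17 and 0.03 in controls. The groups were apart, but MMP3 250K lay close to control 250K, and the difference was 0.56 (SE 0.10, adjusted p = 0.113, limma). Probe sets 1426918_at and 1426920_x_at were also apart, by 0.49 and 0.29 (adjusted p = 0.0906 and 0.0703, limma). Probe sets 1426919_at and 1427771_x_at overlapped, at 0.16 and 0.11 (adjusted p = 0.423 and 0.243, limma), and 1438119_at differed by -0.01, beside a median of -0.02 over all probe sets.

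Among the alpha chains that pair with beta1 or beta4, Itga3, of the laminin receptor alpha3beta1, read 0.40, 0.27 and -0.01 with MMP3 on 1455158_at, against 0.01, -0.09 and -0.29 in controls. The ranges overlapped, both agents being lower at higher density, while MMP3 was higher by 0.39, 0.36 and 0.28 at matched densities. The rise of 0.35 (SE 0.02, adjusted p = 0.0420, limma) passed. On the other probe sets of Itga3 the difference was 0.11 and 0.06 (adjusted p = 0.294 and 0.241, limma), with MMP3 higher in 2 of 3 pairs.

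Itga6, the laminin-binding partner of beta1 and beta4, read 0.21, 0.02 and 0.60 with MMP3 and -0.12, -0.12 and 0.86 in controls. Both agents were highest at 250K, and the MMP3 difference was 0.07 (SE 0.22, adjusted p = 0.803, limma). Itgb4, its hemidesmosome partner, read 0.26, -0.13 and -0.12 with MMP3 and 0.35, 0.19 and -0.41 in controls. These overlapped as well, with a difference of -0.04 (SE 0.11, adjusted p = 0.770, limma).

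Itga5, of the fibronectin receptor, was flat in A except on control 250K, where 1458996_at read 0.63 against -0.05 to -0.01 on the other 5 arrays. Its difference was -0.23 (SE 0.11, adjusted p = 0.241, limma), or -0.027 without control 250K. On 1457561_at and 1423268_at of Itga5 the MMP3 arrays were below controls without overlap, with a difference of -0.02 on each, like the median of all probe sets. Itga2, of the collagen receptor, lay between -0.01 and 0.0049 on 5 arrays and at 0.17 on MMP3 50K, with a difference of 0.05 (SE 0.04, adjusted p = 0.355, limma).

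Counted by overlap, 10 of 29 probe sets had all MMP3 arrays above all controls in A, against 10% of all probe sets, and 4 of 29 had them below, against 43.5%. By lead probe set these were 4 of 10 genes above, against 12.7% of all genes, and 0 below, against 39.3%. Those 4 genes were Itgav, Itgb1, Itgb5 and Itgb6. The array medians differed slightly too, being -0.0095 to -0.0014 with MMP3 and 0.00087 to 0.016 in controls.

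**Figure D2:**
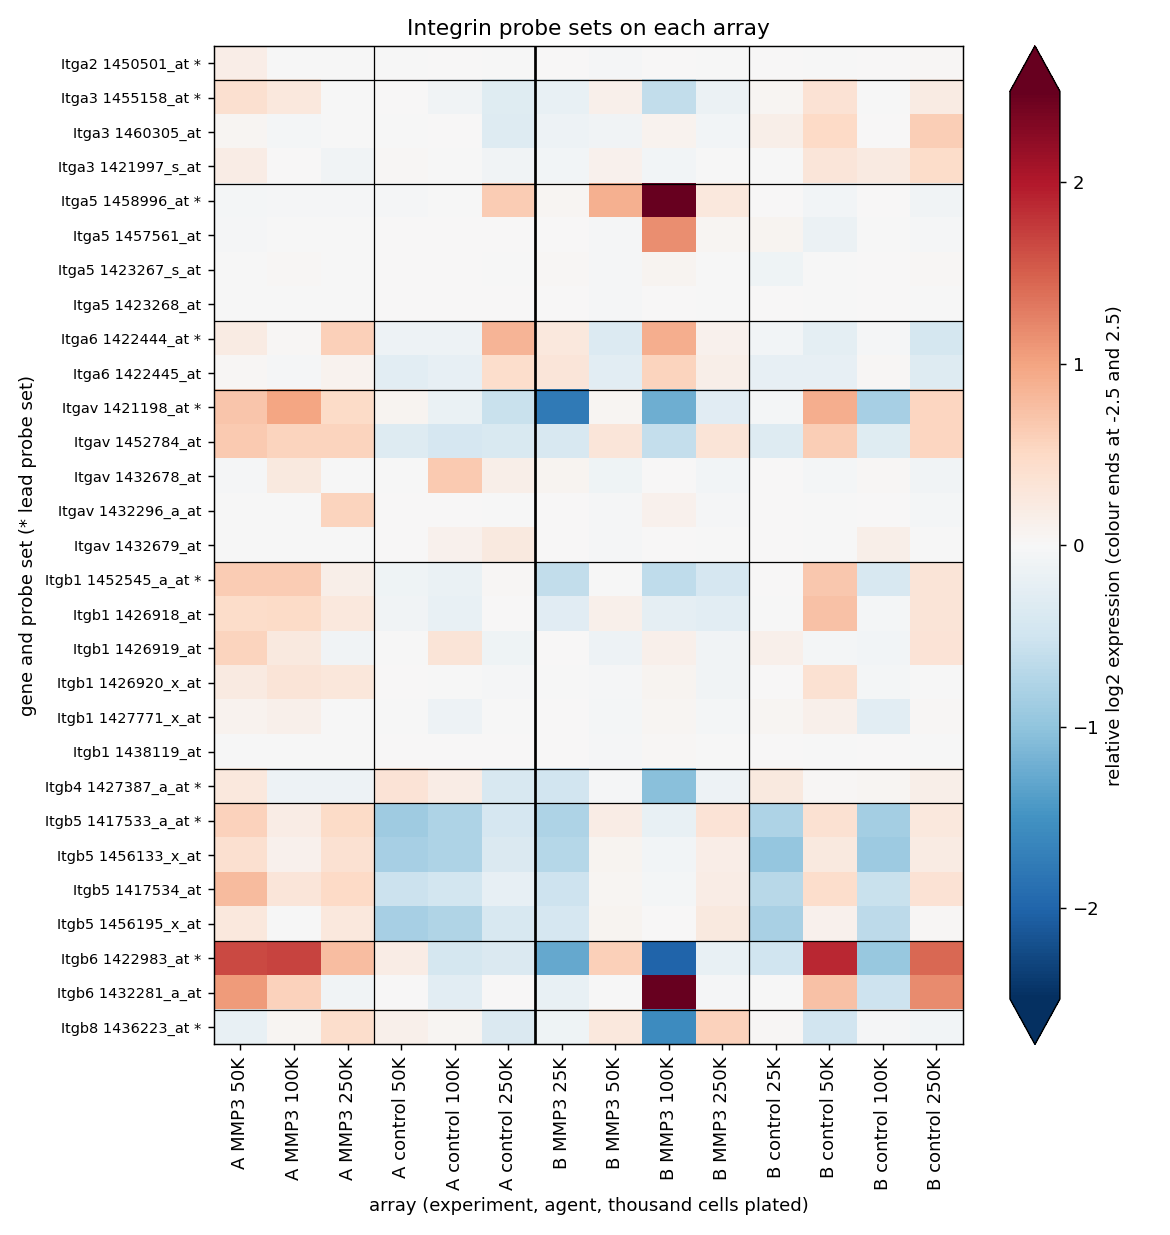
Relative log2 expression of all 29 probe sets (rows, grouped by gene, an asterisk marking the lead) on each of the 14 arrays (columns, by experiment, agent and plated density), in colours that end at -2.5 and 2.5. The Itgb5 rows and the second Itgav row are red or near white in MMP3 dishes of A and blue in its controls, and in B they are red or near white at 50K and 250K under both agents, while MMP3 100K of B is blue on one Itgb6 row and red on the other.

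The calls in A depended on which probe sets entered the fit. With only the 27022 probe sets past the SD filter, 12 of the 25 integrin probe sets tested passed as higher and none as lower with limma, against 19.9% of probe sets in either direction. By lead probe set 5 of the 9 genes tested passed as higher (Itga3, Itgav, Itgb1, Itgb5 and Itgb6; adjusted p = 0.0275 to 0.0442, limma), Itga2 being below the filter. With one lead probe set per gene past that filter the same 5 of 9 passed, against 25.1% of 11812 genes in either direction. Without the product of agent and density 2 of 10 genes passed (Itga3 and Itgb6), where 5.58% of all probe sets passed in either direction. With probe sets of a gene averaged 1 passed (Itgb1, against 9.02% of genes). With any 1 of the 6 arrays left out 1 residual degree of freedom remained, and 0 of 10 passed. With a robust variance prior 0 of 10 passed too, where 949 of all 45037 probe sets did, and 0 of 10 with density as categories. These counts of 0 are not read as particular to the integrins. Of 3 RNA measures, 2 were apart by agent in A and 1 overlapped. The Gapdh control read at its 3′ end less its 5′ end gave 0.04 to 0.17 with MMP3 and -0.03 to 0.03 in controls, and the 18S control was 0.77 to 0.95 with MMP3 and 0.54 to 0.69 in controls. The actin control at its 3′ end less its 5′ end was -0.14 to 0.09 with MMP3 and -0.05 to 0.11 in controls. Their part in the result was not tested.

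The same comparison in experiment B, by its labels, gave other values. None of the 10 genes and none of the 29 probe sets passed with limma, as none of all 45037 did (0%). At an unadjusted p under 0.05, 1 of 29 probe sets passed, against 7.17% of all, and 0 of 10 genes, against 8.54%. The median change of the 10 genes was -0.21, with 3 of 10 above 0, against 8 of 10 in A, and 6 genes that were positive in A were negative in B.

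Itgb6 on 1422983_at read -1.28, 0.60, -2.0 and -0.19 with MMP3 at 25K, 50K, 100K and 250K in B, against -0.49, 1.89, -0.94 and 1.43 in controls. MMP3 was the lower of the pair at all 4 densities, and both agents were high at 50K and 250K. The difference was -1.19 (SE 0.98, adjusted p = 1.0, limma), and -0.73 without the array MMP3 100K.

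Itgav on 1452784_at read -0.39, 0.30, -0.60 and 0.33 with MMP3, against -0.33, 0.62, -0.30 and 0.53 in controls. MMP3 was again lower in 4 of 4 pairs, by less than the gap between the dishes at 25K and 100K and those at 50K and 250K. The difference was -0.22 (SE 0.36, adjusted p = 1.0, limma), and -0.94 (SE 0.58, adjusted p = 0.955, limma) on the lead probe set. The value on the lead probe set ran from -1.31 without MMP3 50K to -0.57 without MMP3 25K, and was -0.23 with the probe sets of Itgav averaged.

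Itgb5 on 1417533_a_at read -0.77, 0.18, -0.18 and 0.35 with MMP3 and -0.78, 0.38, -0.85 and 0.26 in controls. The pairs at 25K and 250K were nearly level, and MMP3 100K was the one array of the low dishes that came near 0. The difference was 0.14 (SE 0.38, adjusted p = 1.0, limma).

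**Figure D3:**
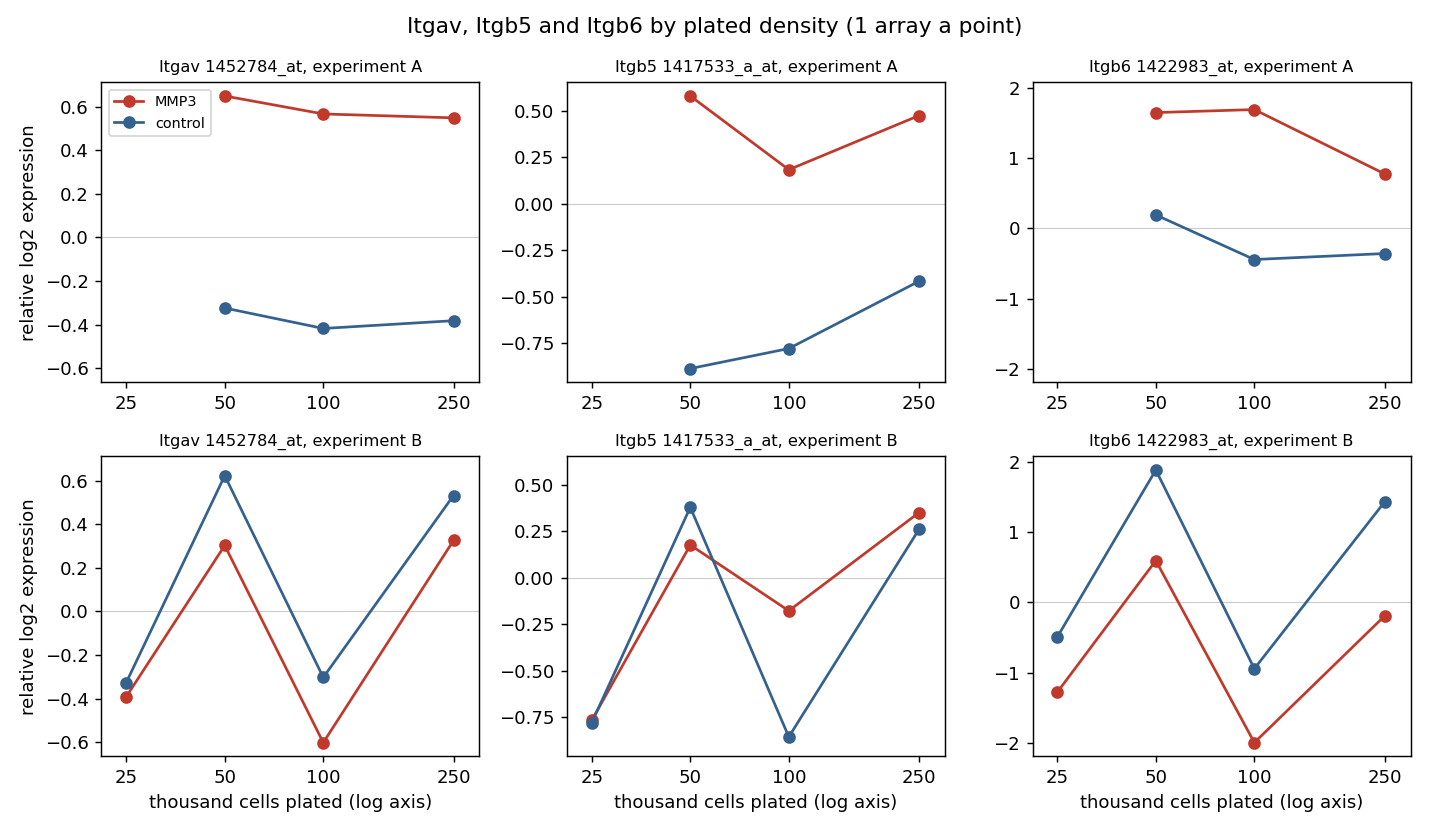
Relative log2 expression (y axis) of Itgav (1452784_at), Itgb5 (1417533_a_at) and Itgb6 (1422983_at) against cells plated in K (log axis) in experiments A (top) and B (bottom), 1 array a point, MMP3 in red and control in blue. In A the MMP3 lines lie above the control lines at every density, and in B both lines are low at 25K and 100K and high at 50K and 250K. The arrays of B split at the same densities over the rest of the genome. Not drawn are the lead of Itgav, 1421198_at, whose ranges in B overlapped (-1.76 to -0.05 and -0.28 to 0.90), and 1432281_a_at of Itgb6. The latter read 3.68 on MMP3 100K of B, and in A its MMP3 array at 250K was below the control.

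In B, 6 of 29 probe sets had all arrays at 25K and 100K below all arrays at 50K and 250K, against 6.39% of all probe sets, and these were the 4 of Itgb5, 1452784_at of Itgav and 1422983_at of Itgb6. For Itgav the ranges were -0.60 to -0.30 and 0.30 to 0.62, for the lead of Itgb5 -0.85 to -0.18 and 0.18 to 0.38, and for Itgb6 -2.0 to -0.49 and -0.19 to 1.89. By lead probe set these were 2 of 10 genes, Itgb5 and Itgb6, against 8.67% of all genes. Another 5 of 29 had the 25K and 100K arrays above, against 48.8% of all, and 0 of 10 genes, against 44.1%. In those 5 the gap between the arrays was small, and for 1432678_at of Itgav the ranges were 0.0018 to 0.07 and -0.11 to -0.06. This grouping of densities was chosen after the values were seen and is a description without a test. The arrays of B split at the same densities over the rest of the genome, so the grouping is not particular to the integrins.

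Among the other members in B, 1 of 29 probe sets had all MMP3 arrays above all controls (2.68% of all probe sets) and 1 had them below (2.9%). Itgb1 on its lead probe set read -0.62, -0.02, -0.64 and -0.42 with MMP3, against 0.02, 0.67, -0.40 and 0.32 in controls, a difference of -0.57 (SE 0.30, adjusted p = 0.886, limma) with MMP3 lower in 4 of 4 pairs. Itga3 on 1455158_at read -0.19, 0.13, -0.62 and -0.15 with MMP3 and 0.04, 0.36, -0.02 and 0.21 in controls, also lower in 4 of 4 pairs, with a difference of -0.35 (SE 0.19, adjusted p = 0.898, limma), or -0.22 without MMP3 100K. Both genes thus had the opposite sign in A.

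Itgb4 read -0.47, -0.03, -1.04 and -0.13 with MMP3, against 0.24, 0.03, 0.05 and 0.15 in controls. Here the agents did not overlap, MMP3 being below (3.5% of all genes), with a difference of -0.54 (SE 0.26, adjusted p = 0.849, limma) and of -0.32 without the array MMP3 100K. Itga5 on 1458996_at was the reverse, at 0.05, 0.89, 2.83 and 0.27 with MMP3 and -0.08 to 0.01 in controls, without overlap (3.4% of all genes), at 1.04 (SE 0.69, adjusted p = 0.981, limma), or 0.43 without MMP3 100K. On 1457561_at Itga5 read 1.16 on MMP3 100K, and its other 2 probe sets stayed between -0.11 and 0.07 on all 8 arrays of B.

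Itga6 read 0.26, -0.34, 0.91 and 0.11 with MMP3 and -0.08, -0.25, -0.02 and -0.43 in controls, a difference of 0.43 (SE 0.30, adjusted p = 0.995, limma), or 0.21 without MMP3 100K. Itgb8 read -0.11, 0.27, -1.57 and 0.58 with MMP3 and 0.03, -0.48, -0.03 and -0.07 in controls, at -0.07 (SE 0.54, adjusted p = 1.0, limma), or 0.41 without MMP3 100K. Itga2 stayed between -0.02 and 0.02. The array MMP3 100K of B had the largest SD over all probe sets (0.869). By lead probe set it was the highest or lowest of the 4 MMP3 arrays for every gene here except Itgav and Itgb5. The share of all genes with this trait was not counted. On the second probe set of Itgb6 the array MMP3 100K read 3.68, with the first at -2.0. The part of its actin 3′ to 5′ difference (0.65) in these values was not tested.

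**Figure D4:**
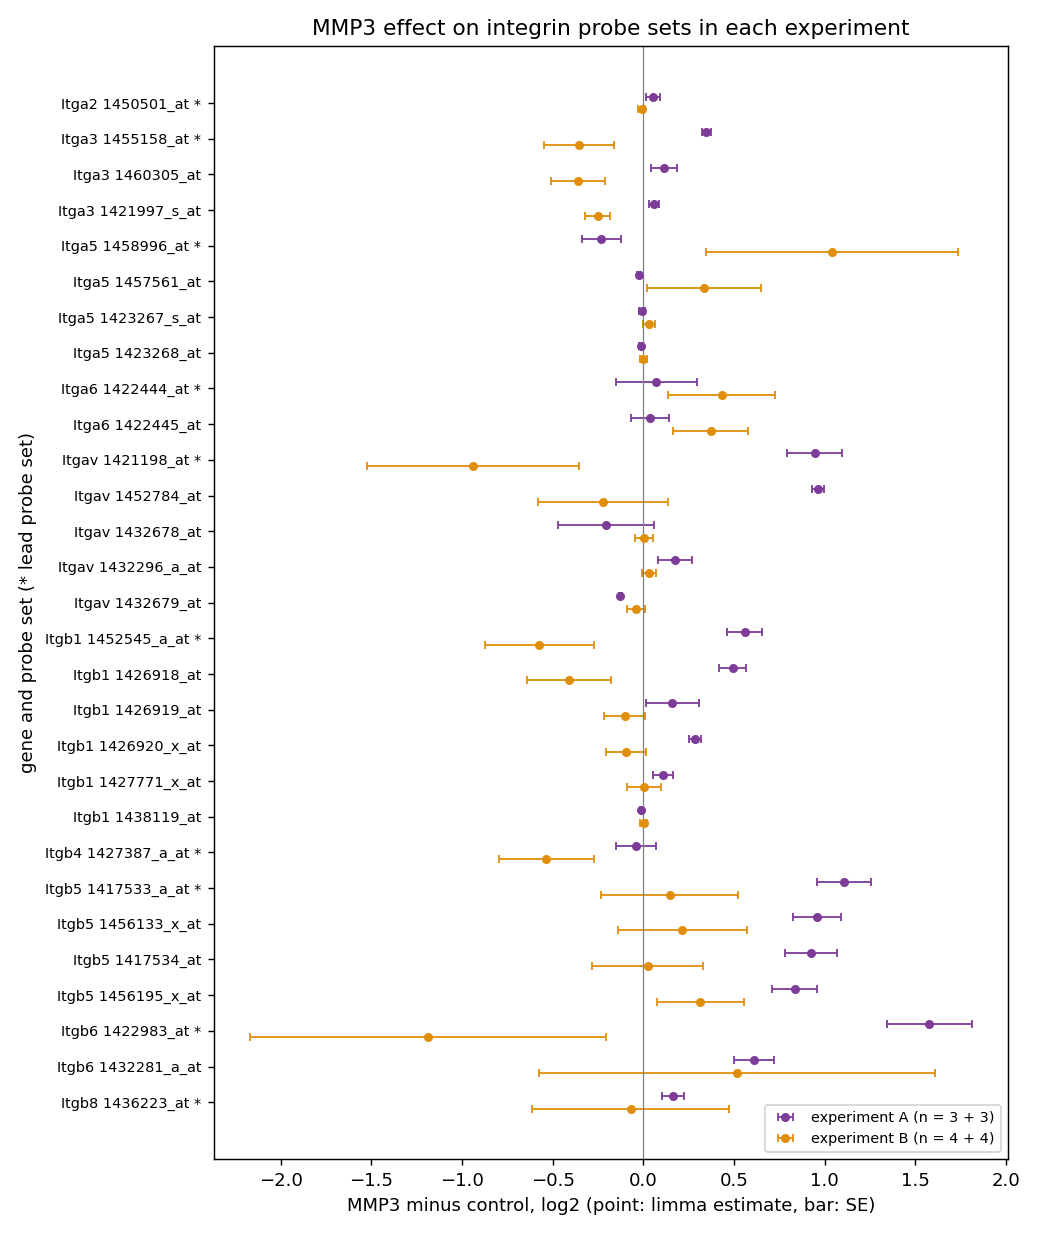
MMP3 minus control on the log2 scale (x axis, limma estimate with SE) for the 29 probe sets (y axis, an asterisk marking the lead) in experiment A (3 MMP3 and 3 control arrays) and experiment B (4 and 4). Estimates of Itgav, Itgb1 and Itgb6 leads lie above 0 in A and below 0 in B, and the bars of B are wider for most probe sets.

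The difference between the experiments was tested without the 25K dishes, which left 12 arrays. None of the 10 genes passed with limma (0% of all genes), and 4 had an unadjusted p under 0.05 (9.04% of all genes): Itgb6 (B minus A -2.90, SE 1.19), Itgav (-1.63, SE 0.67), Itgb1 (-1.11, SE 0.38) and Itga3 (-0.74, SE 0.25). In the fit of all 14 arrays, blocked by experiment, none of the 10 genes and 29 probe sets passed for MMP3 with limma (0.803% of all genes and 0.619% of all probe sets did). At an unadjusted p under 0.05, 0 of 10 genes and 3 of 29 probe sets passed, against 11.8% and 10.1%. The estimates ran from -0.32 for Itgb4 to 0.56 for Itgb5.

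The fit was repeated without the 4 arrays of B that went against their labels over all genes. By lead probe set 4 of 10 genes passed as higher for MMP3 with limma, Itgb6 (1.47), Itgb5 (1.08), Itgav (0.79) and Itga3 (0.26). The share of all genes by lead probe set was not counted for this fit, so this count is not read as particular to the integrins. Of the 29 probe sets 9 passed as higher and 3 as lower, where 57.3% of all probe sets passed in either direction. Those that fell were 1423268_at of Itga5, 1432679_at of Itgav and 1438119_at of Itgb1. The 4 arrays left out were chosen by their values, so this is no independent support for a direction. The 4 that stayed read 0.60 and -0.19 for Itgb6 on MMP3 50K and 250K, against -0.49 and -0.94 on control 25K and 100K.

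The second factor of the design was the density of plating. No integrin gene passed for the density slope with limma in A, in B or over all arrays, and none of all 45037 probe sets did (0%). At an unadjusted p under 0.05, 2 of 10 genes passed in A (18.3% of all genes), Itga3 at -0.16 per doubling of plated cells (SE 0.01) and Itgb4 at -0.24 (SE 0.06), and 0 of 10 in B (3.67%) and over all arrays (8.4%). Over all arrays the slopes ran from -0.08 for Itgb4 to 0.18 for Itgb5 per doubling. The interaction of MMP3 and density called none of the 10 (0% of all genes), and none at an unadjusted p under 0.05 (1.76%).

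Other genes of adhesion were counted from lists by their lead probe sets in A. None of 14 other integrin subunits passed with limma, 4 of them varied enough to pass the SD filter, and their median was -0.02. Of 23 matrix ligands 5 rose and none fell, with a median of 0.40, where 3.13% of all genes rose. They were Ccn2 (4.09, SE 0.25), Ccn1 (3.89, SE 0.20) and Thbs1 (3.13, SE 0.15), secreted matricellular proteins that bind integrins, then Col4a1 (1.07, SE 0.02), and Col4a2 (0.86, SE 0.05), collagen IV chains of the basement membrane, at adjusted p = 0.0191 to 0.0387 (limma).

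Of 28 adaptors and activators that act at the integrin tail 3 rose, where 3.13% of all genes did, and none passed as lower, with a median of 0.10. They were the kinase Src (1.34, SE 0.04), Vcl for vinculin (0.80, SE 0.01) and the scaffold Bcar1 (0.77, SE 0.06), at adjusted p = 0.0191 to 0.0434 (limma). Of 12 hemidesmosome and tetraspanin partners Cd81 (0.92, SE 0.07) and Cd151 (0.62, SE 0.04), both tetraspanins, rose, against the same 3.13%. None passed as lower, and the median was 0.23. Short of the threshold were Slc3a2 (-0.87), Dst (-0.72), Plec (-0.47), Cav1 (-0.46) and Cd47 (0.96), at adjusted p = 0.0544 to 0.0975 (limma). Ccn2, Bcar1, Cd81 and Cd151 did not pass with array medians at 0 (adjusted p = 0.0521 to 0.0586, limma) or a robust variance prior (0.0526 to 0.0584). With density as categories Ccn2, Ccn1, Vcl, Cd81 and Cd151 did not pass (0.0637 to 0.197), nor did Ccn1 without the product (0.113) or Vcl with probe sets averaged (0.0751). Averaging gave 0.64 for Col4a1 and 0.35 for Cd151, and with any 1 array of A left out none of Ccn2, Ccn1, Thbs1, Col4a1, Src, Vcl, Bcar1, Cd81 and Cd151 passed. Col4a2 was not tested under these settings. The lead probe sets of Ccn1 and Cd151 end in _x_at and that of Bcar1 in _s_at, so they too can match other transcripts. None of 8 inhibitors of integrin activation passed, at a median of 0.16. In B none of these lists had a passing member, and Ccn2, Ccn1, Thbs1 and Col4a1 differed by -3.40, -3.18, -2.32 and -0.78.

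Markers of other cell types were set beside these. None of 8 leukocyte, 6 fibroblast, 4 endothelial and 4 platelet markers passed in A with limma, with a median of -0.02 for each list. The mean relative log2 value of the leukocyte markers was -0.03 to -0.01 with MMP3 and -0.0049 to 0.23 in controls, and that of the fibroblast markers -0.17 to 0.04 and -0.07 to 0.36. In B the leukocyte mean was 0.06 to 0.60 with MMP3, and -0.01 to 0.04 in controls, and 1 marker, Cd68 (difference 1.78), carried it, the other 7 differing by -0.04 to 0.08. The fibroblast mean in B was 0.01 to 0.40 with MMP3 and -0.22 to 0.11 in controls. Pdgfra (difference 1.52) and Dcn (0.25) carried it, the other fibroblast markers differing by 0.0032 to 0.02. The epithelial mean in B was -0.91 to 0.30 with MMP3 and 0.0066 to 0.07 in controls. Krt14 (difference -0.86) and Cdh1 (-0.28) differed most by agent, the other epithelial markers differing by -0.02 to 0.05. Epcam and Krt5 also varied among the arrays of B (SE 0.46 and 0.42). Which markers set the mean of a single array was therefore not read. The part of these markers in the values of B was not tested. In A, 2 of 6 epithelial markers passed as higher with limma, Epcam (1.18) and Cdh1 (0.89), and 1 as lower, Krt5 (-1.03). Of all genes 3.13% passed as higher in A and 1.91% as lower. In B none of the 6 passed, and Epcam, Cdh1 and Krt5 differed by 0.0042, -0.28 and 0.05.

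The genes whose lead probe sets were most like those of the members, by Pearson r over the 14 arrays among 11812 genes past the SD filter, are given as a description. For Itgb5 they were Qsox1 (r = 0.989) and Tmem63a (0.981), for Itgb6 Fam3c (0.974) and Plod2 (0.967), for Itgav Ehd1 (0.974) and Rpn2 (0.971), and for Itgb1 Slc25a24 (0.967) and Ammecr1l (0.959). For Itga3 they were Tnnt2 (0.983) and Cited2 (0.982), for Itga6 Klhl9 (0.919) and Ccni (0.918), for Itgb4 Hnrnpm (0.965) and Helq (0.965), and for Itgb8 Chdh (0.978) and Jund (0.968). For Itga5 they were 4930481B07Rik (0.978) and Fut10 (0.977), which came to 0.848 and 0.825 without the array MMP3 100K of B. Itga2, which varied on 1 array, was most like Tcf15 (0.995) and Cep295nl (0.994).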

How the data were processed

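RNA of 14 dishes of SCp2 cells was measured on Affymetrix arrays from 200 ng of total RNA, per the labels' protocols. The deposited values are log2 expression that the authors computed by RMA (per the submitters' processing notes, without a version), and what else was done is not given in the sources used here. Their log base is not stated and is the one RMA gives. All 45101 probe sets had a median over the arrays within 1e-06 of 0, a centring seen in the values, and the range was -7.18 to 6.62. No scanner files were used here, so signal over background is unknown and the number of arrays limits the precision.

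Of 45037 probe sets that are not controls, 34945 had 1 gene symbol, 932 several and 9160 none, and 34741 took a current symbol by Entrez identifier. All 45037 were tested with limma 3.58.1 in R 4.3.3 (lmFit, eBayes, Benjamini-Hochberg over all of them, threshold 0.05). The model had agent, centred log2 density and their product, with experiment as a block where both were fitted, and left 2 residual degrees of freedom in A, 4 in B and 9 over all arrays. The difference between experiments had agent, experiment, their product and density. The most variable probe set, by SD, stood for a gene. The labels say that A and B are separate experiments, so the letter pairs the arrays by design; deviations from the means of agent and density correlated between groups at 0.0521 on average (-0.646 to 0.636).

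The members, the lists and the tests were chosen with earlier results of these data known. Genes named from a list were the up to 4 passing members with the largest change in A (Col4a2 was added to complete a count), and the genes most like a member were the 2 with the highest r. The fits were tested on simulated data. Alternatives changed the probe sets tested, the probe set per gene, the array scaling, the variance prior, the model, the block and the arrays. Promoter sequences are those of RefSeq (GRCm38.p6), where 8 of the 10 genes matched.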

Additional observations from a re-analysis of the deposited data

Results flagged for a closer look

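Within each agent, single arrays were compared with the rest of their group for the lead probe sets, in 40 groups (4 arrays of one agent in B, or 7 of both experiments, with densities mixed). A value far from the others was found in 7 groups, all of them groups of 7. By the rule, chance alone gives about 5% of groups. The share of all genes flagged in this way was not counted, so the 7 are not read as particular to the integrins. The SD over all probe sets was 0.869 on MMP3 100K of B and 0.396 on control 250K of A. Control 250K of experiment A was the value far from the others for 3 genes: Itga5 at 0.628 (next 0.0131), Itga6 at 0.858 (next -0.0212) and Itgb4 at -0.405 (next 0.0296). The array MMP3 100K of experiment B was far from the other MMP3 arrays for Itga5 at 2.83 (next 0.887) and Itgb8 at -1.57 (next -0.188). Itga2 stood apart at 0.172 on MMP3 50K of A (next 0.0102) and at 0.0212 on control 250K of B (next 0.0049), a difference of under 0.02 on a probe set below the SD filter. No integrin gene passed a test of the difference between experiments.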

How the results depend on the processing

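The count of integrin genes called for MMP3 in experiment A was 1 of 10. It became 5 of the 9 tested with the SD filter on all probe sets or on lead probe sets, and 2 without the product of agent and density. It became 0 with a robust variance prior, where 949 of all 45037 probe sets passed, or with density as categories. It was 1 (Itgb1) when probe sets of a gene were averaged and 1 with array medians at 0, where 963 of all 45037 probe sets passed. With each array of A left out it ran from 0 to 0. Over all arrays the count was 0 and became 4 without the 4 arrays of B, where 57.3% of all probe sets passed. It was 0 with no replicate block (experiment left out) and with each pair of dishes as the replicate block, so the block changed no integrin call; over all probe sets these gave 0 and 5 calls, against 279 with experiment as the block. For experiment B, the density slopes, the interaction and the difference between experiments the count was 0 under every alternative run. The cause of these differences was not tested.

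Directions that turned were all of values that did not pass as reported. Over all arrays, averaging probe sets gave 0.015 for Itgav, 0.0010 for Itgb1 and 0.28 for Itgb6, and array medians at 0 gave 0.0015 for Itgb6. Without the 4 arrays of B the values were 0.26 for Itga3, -0.073 for Itga6, 0.79 for Itgav, 0.40 for Itgb1 and 1.47 for Itgb6. With 1 array left out, the MMP3 effect over all arrays ran from -0.13 to 0.043 for Itga3, -0.30 to 0.15 for Itgav, -0.19 to 0.052 for Itgb1, -0.25 to 0.44 for Itgb6, -0.12 to 0.29 for Itgb8 and -0.0090 to 0.028 for Itga2. In A it ran from -0.024 to 0.084 for Itga2, -0.20 to 0.40 for Itga6 and -0.21 to 0.032 for Itgb4. In B it ran from -0.093 to 0.41 for Itgb5 and -0.76 to 0.41 for Itgb8, and the difference between experiments from -0.64 to 0.45 for Itgb8.

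The sizes in A of the 4 genes apart by agent kept their sign in all 13 alternatives each. This is no support, as the genes were picked for being apart on these same arrays. The SD filter and the robust variance prior also leave the estimate of a lead probe set unchanged. With 1 array left out Itgb6 ran from 1.44 to 1.90, Itgb5 from 0.83 to 1.22, Itgav from 0.82 to 1.23 and Itgb1 from 0.49 to 0.72. Averaged over probe sets they were 1.09, 0.96, 0.35 and 0.26.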
